A study of Mus musculus with 4 samples.

Results

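High-fat diet (HFD) was compared with normal diet in perigonadal white fat macrophages of BLIMP1 conditional knockout (CKO) mice, across all genes of 2 single-cell libraries. The cells had been sorted as live, CD45 positive, lineage negative, CD11b positive and CD64 positive, and were run on the 10x Chromium 3′ workflow. Macrophages were taken as cells with at least 500 UMIs (unique molecular identifiers, each 1 counted RNA molecule), at least 300 genes, at most 10% of UMIs from mitochondrial genes, and a UMI in at least 2 of C1qa, C1qb, Csf1r, Adgre1 and Fcgr1. By this rule 10950 of the 13076 cells of both CKO libraries were members, 7736 from HFD and 3214 from normal diet, against 18062 of 21867 cells in all 4 libraries of the series. Cells just outside the rule, with a UMI in exactly 1 of the 5 markers, numbered 577 under HFD and 664 under normal diet, and cells just inside, with exactly 2, numbered 829 and 643. Lyz2, a lysozyme of macrophages and monocytes, had a UMI in 85.4% and 90.2% of the former and in 95.2% and 93.8% of the latter.

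Both groups carry the conditional deletion of BLIMP1 and differ by diet as labelled. The labels do not state the Cre driver, which exons were removed, how old the mice were or their sex, how long the diet lasted, or how many animals were pooled. The 2 libraries labelled WT, on the same 2 diets, are set beside the CKO values where named. The WT HFD library was deeper, with a median of 14600 UMIs per member, against 4546 in WT under normal diet. Of its filtered cells, 96.3% met the marker rule, against 71.1% in WT under normal diet and 88.6% (HFD) and 74.7% in CKO. Over the mitochondrial limit were 400 of its cells, against 23 in WT under normal diet. Depth was made equal only after the rule, and its part in the WT values was not tested. Each group is 1 library, so diet and library cannot be told apart, no test across libraries was run, and every interval below is a 95% interval for counting error alone.

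Fat macrophages clear dying fat cells, take up and store lipid, and hold or release iron. Under a high-fat diet, monocytes drawn by CCR2 ligands enter the tissue, and lipid-associated macrophages marked by TREM2 gather around dying adipocytes, while resident macrophages along vessels carry LYVE1, FOLR2 and CD163. BLIMP1, encoded by Prdm1, is a zinc finger repressor of transcription best known from plasma cells, which also acts in macrophages and dendritic cells.

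Prdm1 RNA (ENSMUSG00000038151, GRCm38 chr10:44437177-44528501, minus strand) was present in both CKO libraries. Its level was 21.1 CPM (UMIs of the gene in 1000000 UMIs of the pool; interval 18.7 to 23.6, 296 UMIs) under HFD and 33.3 CPM (interval 28.7 to 38.4, 186 UMIs) under normal diet, beside 23.3 and 30.4 CPM in the WT libraries. The CKO level was thus not below the WT level by more than counting error on either diet. Tags from the 3′ end cannot show the loss of exons elsewhere in the gene, so the libraries are named here by their labels. Of the 11 markers fixed for the sorted cells, all were detected, Adgre1 (F4/80) at 393 and 384 CPM, Csf1r at 607 and 468 CPM, and Cd68 at 454 and 220.3 CPM under HFD and normal diet. The 5 markers of the rule are described and not read as results.

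Members of the HFD library had a median of 4039 UMIs and those of the normal-diet library 4297.5, with mitochondrial shares of 1.83% in both, and 6 cell barcodes occurred in both libraries. Each member was thinned at random to 2000 UMIs, which left out 708 (9.15%) and 420 (13.1%) shallower cells, and the 7028 and 2794 cells that remained were summed into 2 pools of 14056000 and 5588000 UMIs. At this equal depth a cell had a median of 943 genes under HFD and 1142 under normal diet. The pools differed in their make-up. Genes of the longest span on the genome (median 124 kb, introns included) took 7.56% of UMIs under HFD and 18.6% under normal diet, against 12.4% and 17.9% in WT. Ribosomal protein genes took 20.3% and 10.7%. Gm42418, a predicted gene, took 0.685% and 3.86% in CKO but 4.78% and 3.28% in WT. What sets these shares was not tested. Results were therefore also computed relative to genes of like span, and within a shared range, the 2471 HFD and 974 normal-diet cells with 8 to 16% of their UMIs from the longest-span genes, which was chosen after seeing the data. Log2 ratios in the shared range are given below for many of the named genes that were over 2-fold apart over all cells and are not so there. That of Cd68 was 0.85. That range is no neutral sample of the cells, since it holds 70.9% resident-marked cells under HFD and 46.3% under normal diet, as defined with the marker ranges further on.

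**Figure D1:**
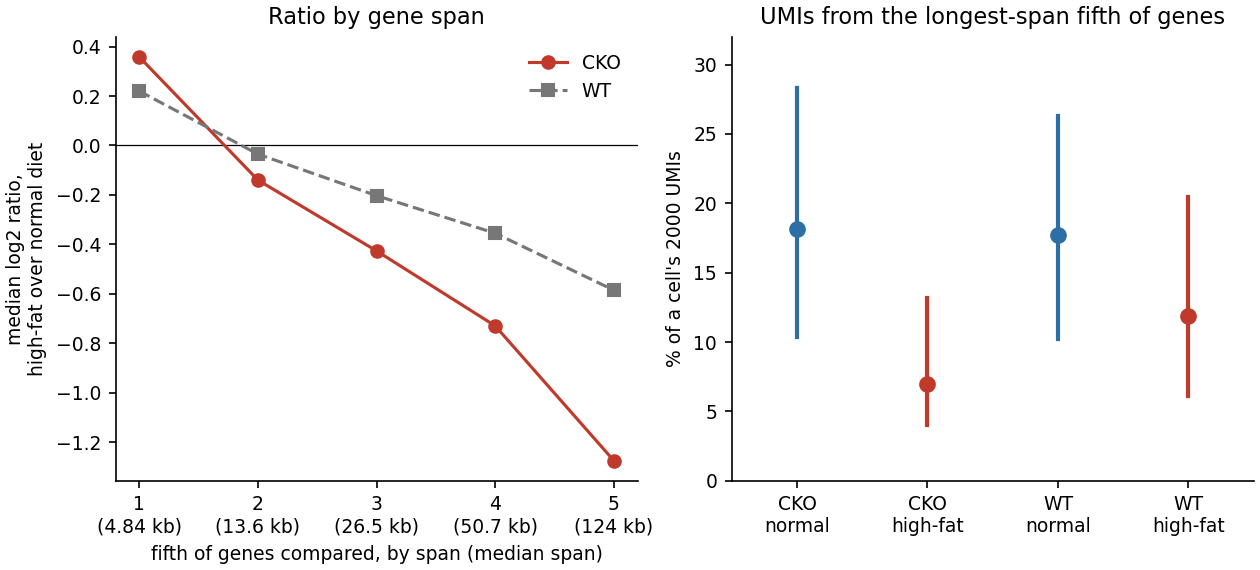
Left, median log2 ratio of high-fat over normal diet (y axis) in 5 equal groups of genes ordered by span (x axis, median span in kb) in CKO (red circles) and WT (grey squares); right, percent of each cell's 2000 UMIs from the group of longest span (y axis) in the 4 libraries, as median (point) and 5th to 95th percentile of cells (line). The CKO ratio went from 0.36 for the shortest to -1.27 for the longest genes, and the WT ratio from 0.22 to -0.59.

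Across the 7809 genes with a mean of at least 10 CPM over both pools, 389 (4.98%) were over 2-fold higher under HFD and 1916 (24.5%) over 2-fold lower, 29.5% in either direction, on the log2(CPM + 1) scale used for every count and list median. The median gene had a log2 ratio of -0.48 in CKO and -0.24 in WT, where 4.13% of 7892 genes were over 2-fold higher and 9.59% lower. Scaling by TMM in place of the total adds 0.59 to every log2 ratio and gave 1190 higher and 633 lower, so a list with a median between -0.59 and 0 changes sign under it, and DESeq2 size factors add 0.55. Relative to the running median of genes of like span, 413 (5.29%) genes were over 2-fold higher and 354 (4.53%) lower, and 197 (2.52%) and 259 (3.32%) were so both plainly and relative to span. These shares are the background for the counts of each gene list. A gene under 10 CPM in 1 pool passed the filter through the other pool only, which fixed its direction. Counts below that include such genes are set in part by the filter. Among them are Rnase2a, Arg1, Timp1, Ccl5, Slc40a1, Timd4, H2-Q6, Cd38 and Itgal, and others are named in place. Folds of single genes below are plain ratios of CPM. Of 96 named genes over 2-fold higher, 29 were so in the shared range too, and of 120 lower, 57 were.

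**Figure D2:**
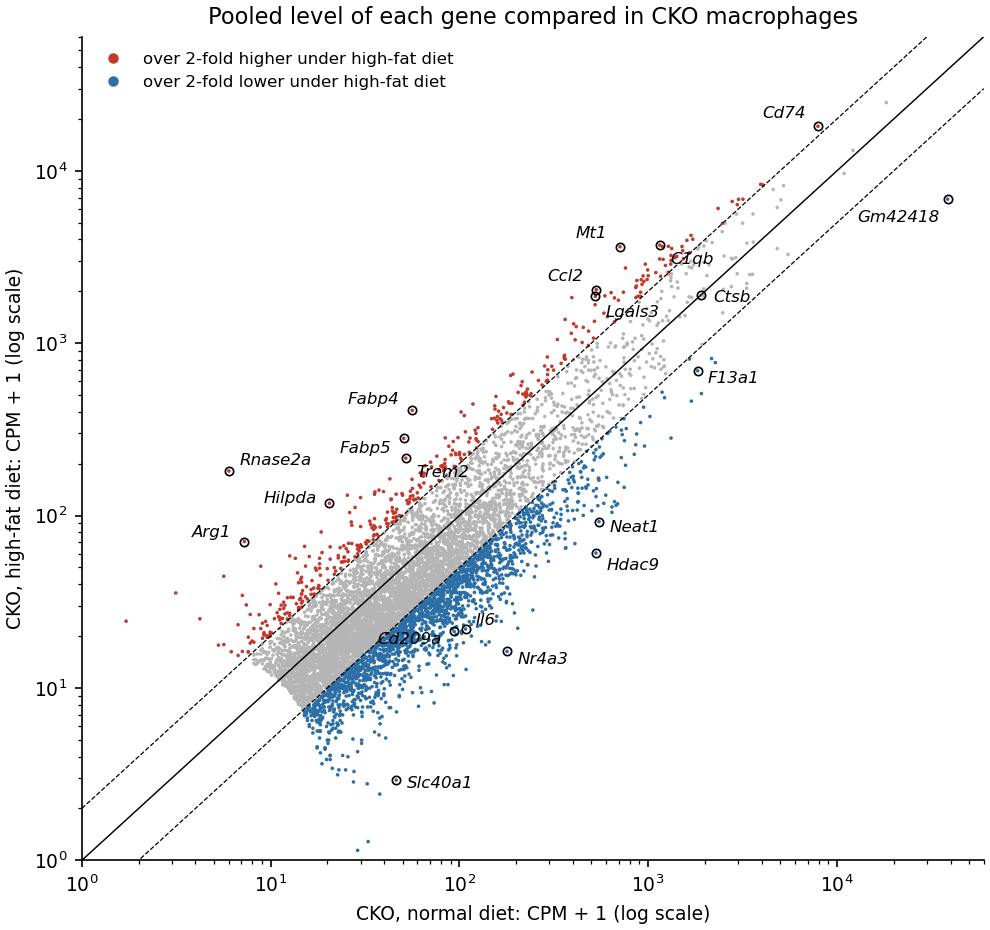
Pooled level of each of the 7809 genes in CKO macrophages under normal diet (x axis, CPM + 1, log scale) and high-fat diet (y axis, CPM + 1, log scale), with the solid line at equality and dashed lines at 2-fold. Genes over 2-fold higher (red, 389) and lower (blue, 1916) are coloured, and 20 named genes are circled.

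By a rule on size, the 15 highest and 15 lowest genes of at least 25 CPM on average were taken, leaving out classes such as ribosomal protein genes and markers of other cells. The highest were Rnase2a, Arg1, Mt1, Fabp5, Hilpda, Lgals1, Lgals3, Trem2 and Ccl2, described below, with Pold4, Ssr4, Ubb, Atp5g1, Edf1 and Elob. The last 6 serve basic functions: Ubb, a ubiquitin gene, was at 1373 CPM under HFD and 362 CPM under normal diet, 3.79-fold higher, and Ssr4, of the translocon of the endoplasmic reticulum, at 398 and 101 CPM, 3.94-fold. The lowest were Nr4a3 and the nuclear RNA Neat1, with Aff3, Hdac9, Mpp7, Lsmem1, Chn2, Plcb1, Sik3, Dennd4a, Slc8a1, Ext1, Slc9a9, Gphn and Arhgap15. Most of these are long genes. Hdac9, a histone deacetylase gene that spans 869.5 kb, was at 59.6 and 528 CPM, 8.86-fold lower, and its log2 ratio of -3.13 was -1.34 relative to span. Neat1 was at 91.2 and 548 CPM in CKO and 504 and 516 CPM in WT. Their log2 ratios in the shared range were -0.89 for Neat1 and -1.24 for Hdac9, beside 0.99 for Ssr4. Those of Slc8a1 (-0.10), Slc9a9 (-0.29) and Arhgap15 (-0.74) were within 2-fold there.

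Genes of lipid-associated macrophages were among the highest under HFD. Of 22 genes on this list, 11 were over 2-fold higher and 1 over 2-fold lower, with a median log2 ratio of 0.93, 1.21 relative to span, beside 1.35 in WT. Of these 22, 2 passed the filter through the HFD pool only. Trem2, a lipid-sensing receptor, stood at 214 CPM under HFD and 51 CPM under normal diet, 4.20-fold higher (interval 3.72 to 4.76). The WT libraries held 345 and 58.05 CPM, so that both HFD libraries were above both normal-diet libraries. Fabp4, a fatty acid chaperone, had 407 and 55.3 CPM, a ratio of 7.36 (6.56 to 8.28), and its relative Fabp5 279.5 and 49.7 CPM, a ratio of 5.62 (4.97 to 6.37). The galectins Lgals1 (1839 and 394 CPM) and Lgals3 (1872 and 525 CPM) were 4.67-fold and 3.57-fold higher. The 2 members that passed through the HFD pool only, Gpnmb and Spp1, could only be higher and had wide intervals. Gpnmb, a lysosomal glycoprotein, was at 43.5 and 4.65 CPM (9.34-fold, 6.31 to 14.4), and Spp1, which encodes osteopontin, at 33.4 and 6.08 CPM (5.496-fold, 3.88 to 8.03). The 10 cells with most UMIs held 88.5% of Gpnmb UMIs and 61.8% of Spp1 UMIs in the normal-diet pool. In the shared range the list median was 0.39, and the log2 ratios were 0.32 for Fabp5, 0.43 for Lgals3, 0.66 for Spp1 and -0.065 for Gpnmb, all within 2-fold. Trem2 (1.09), Lgals1 (1.62) and Fabp4 (1.95) stayed over 2-fold higher there, with smaller ratios. Dcstamp, a fusion protein of giant cells, was the member over 2-fold lower, at 10.4 and 32.7 CPM. Lpl, the lipase that frees fatty acids, had 871 and 1013 CPM, a ratio of 0.860 (0.833 to 0.888) that TMM scaling turns above 1.

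Trem2 was found in 25.04% of thinned macrophages under HFD and 8.27% under normal diet (38.1% and 17.8% before thinning). Cells outside the rule gave the background: of 51 cells with fibroblast markers in the HFD library (median 3240.5 UMIs over all 68 before thinning, against 4039 in macrophages) 0 held a Trem2 UMI, and of 30 lymphoid cells there (median 2099 UMIs over all 51) 1 did. Fabp4 was found in 34.5% and 7.34% of macrophages (50.6% and 15.5% before thinning), in 25 of the 51 fibroblast-marked cells and in 2 of the 30 lymphoid cells. Fabp4 is also an adipocyte and endothelial gene, and the part of free RNA in its level was not tested. Under HFD, 35.5% of Trem2-positive macrophages also held Fabp5, against 17.1% of the others.

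Lipid droplet genes were split. Of 19 genes for lipid uptake and droplets, 4 were over 2-fold higher and 1 lower, with a median of -0.15 that turned to 0.30 relative to span and 0.40 with TMM. Hilpda, a droplet protein that blocks the lipase ATGL, was at 117 CPM under HFD and 19.5 CPM under normal diet, 5.996-fold higher (4.94 to 7.35). Plin2, the main coat protein of macrophage droplets, was at 567 and 211 CPM, 2.68-fold higher (2.52 to 2.85). Both were high in the WT HFD library as well, at 84.3 and 1095 CPM. The scavenger receptor Cd36 had 705 and 1169 CPM, a ratio of 0.604 (0.585 to 0.623) that is 0.44 on the log2 scale relative to span. Acsl4, which loads long fatty acids with coenzyme A, was 2.39-fold lower at 48.2 and 115 CPM. Hilpda and Acsl4 were within 2-fold in the shared range, at log2 ratios of 0.67 and -0.55, and Plin2 was at 1.03.

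The largest ratio among genes with a mean of at least 25 CPM belonged to Rnase2a (GRCm38 chr14:51255262-51256112), of the eosinophil-associated ribonuclease family. It stood at 180.4 CPM under HFD and 5.01 CPM under normal diet, 36.01-fold higher (24.9 to 54.3), and at 169.6 and 2.59 CPM in WT. Both HFD libraries were high and both normal-diet libraries low. The gene was in 13.8% and 0.787% of CKO macrophages (19.9% and 2.33% unthinned) and in none of the 51 fibroblast-marked and 30 lymphoid cells of the HFD library, which allow shares of up to 5.88% and 10.0%. Trem2 had a UMI in 13.4% of the HFD macrophages with Rnase2a and in 26.9% of the others. Reads of the near-identical ribonuclease genes of this family may be split between them, so the level of this 1 gene is uncertain. Arg1, the arginase of alternative activation, had 69.7 and 6.26 CPM, 11.1-fold higher (7.95 to 16.1), with 20.2 and 6.91 CPM in WT. It was found in 5.34% and 0.644% of macrophages (8.78% and 1.62% unthinned), and in 0 of 51 fibroblast-marked but 10 of 30 lymphoid cells. Of 375 Arg1-positive HFD macrophages, 41.3% also held Hilpda, against 12.3% of the rest. Timp1, an inhibitor of matrix metalloproteinases, was 16.1-fold higher (9.13 to 31.4) at 34.6 and 2.15 CPM, from 12 UMIs in the normal-diet pool. Log2 ratios in the shared range were 5.18 for Rnase2a, 3.09 for Arg1 and 1.898 for Timp1.

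The 4 CCR2 ligands, which draw monocytes, lie together on chromosome 11 and were all higher under HFD in the CKO pair. Ccl2 (chr11:82035571-82037453) stood at 2046 CPM under HFD and 530.1 CPM under normal diet, 3.86-fold higher (3.72 to 4.01). Ccl7 (chr11:82045712-82047525) had 1051 and 329.6 CPM, 3.19-fold higher (3.04 to 3.35), and Ccl12 (chr11:82101845-82103400) 403 and 160.3 CPM, 2.51-fold higher (2.34 to 2.70). Ccl8 (chr11:82115185-82116799) stayed within 2-fold at 214 and 128 CPM, 1.67-fold (1.54 to 1.82). The summed level was 3713 CPM against 1148 CPM, and the median log2 ratio was 1.497, 0.85 relative to span and 1.91 in the shared range. In the WT pair the same genes did not stand higher under HFD by 1.5-fold: Ccl2 was at 671 and 708 CPM, Ccl7 at 373 and 469, and Ccl12 at 116 and 185. Ccl8 was slightly higher under HFD in WT, at a log2 ratio of 0.13. The CKO HFD library was the highest of the 4 for Ccl2, Ccl7 and Ccl12, with 1 library per group and no test of the difference between genotypes.

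Ccl2 was present in 65.4% of macrophages under HFD and 42.1% under normal diet (71.7% and 56.9% unthinned), against 8 of 51 fibroblast-marked and 0 of 30 lymphoid cells under HFD. Ligands were often found in 1 cell. Under HFD 55.2% of Ccl2-positive macrophages also held Ccl7, against 12.1% of the others, and under normal diet the values were 39.8% and 11.1%. Trem2 had a UMI in 19.5% of Ccl2-positive and 35.5% of Ccl2-negative HFD cells. Ccr2 itself, the receptor, differed little, at 664 and 708 CPM.

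Among 7 other CC chemokines, 3 were over 2-fold higher and 0 lower. Ccl3 had 146 and 69.8 CPM and Ccl4 375 and 158 CPM, 2.09-fold and 2.37-fold higher. Ccl5 passed 2-fold at 29.3 and 6.44 CPM, but 10 cells held 57.8% and 86.1% of its UMIs. Ccl24, an eosinophil attractant, was level in CKO at 349 and 341 CPM, while the WT pair had 84.7 and 331 CPM. Of 7 CXC chemokines, 2 were over 2-fold higher and 1 lower. Cxcl13, which guides B cells, was at 65.3 CPM under HFD and 14.1 CPM under normal diet in CKO, 4.62-fold higher (3.67 to 5.89), and at 1.46 and 14.03 CPM in WT. It was in 3.10% and 0.752% of macrophages, 70.2% of the 218 positive HFD cells also held Folr2 (38.5% of the rest), and no fibroblast-marked or lymphoid cell held it. Cxcl16, a membrane-bound ligand of CXCR6, was 2.36-fold higher at 145 and 61.4 CPM. Cxcl2, a neutrophil attractant, was abundant in both at 2527 and 1328 CPM, just under 2-fold. Restricted to the shared range, the log2 ratios were 0.62 for Ccl3, 0.65 for Ccl4 and 0.29 for Ccl5, within 2-fold, and 4.73 for Cxcl13.

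**Figure D3:**
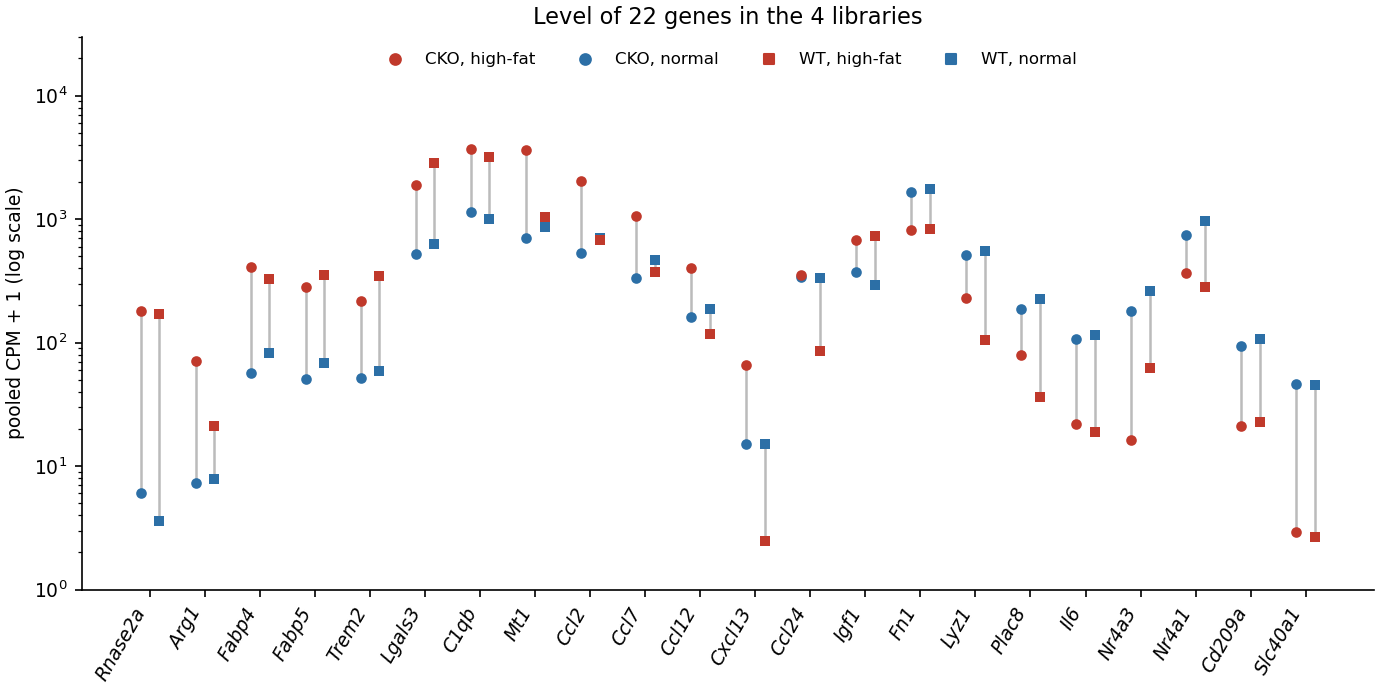
Pooled level (y axis, CPM + 1, log scale) of 22 genes (x axis) in the macrophages of the 4 libraries, CKO as circles and WT as squares, high-fat diet in red and normal diet in blue, with a grey line joining the diets of 1 genotype. Rnase2a, Fabp4 and Trem2 were higher under high-fat diet in both pairs, whereas Ccl2, Ccl7 and Ccl12 were higher in the CKO pair. In the WT pair Ccl2 was near level (log2 ratio -0.077) and Ccl7 and Ccl12 were lower. C1qb, a marker of the rule, is shown as a description.

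Mt1, a metallothionein that binds zinc and copper, was at 3628 CPM under HFD and 708 CPM under normal diet, 5.12-fold higher (4.96 to 5.29), and over 2-fold higher under all 19 alternative settings. In WT it was at 1048 and 859 CPM. Its neighbour Mt2 was level, at 137 and 132 CPM, a ratio of 1.04 (0.958 to 1.14). A UMI of Mt1 was found in 85.7% and 57.1% of macrophages (91.4% and 72.00% unthinned), in 42 of 51 fibroblast-marked cells and in 3 of 30 lymphoid cells. Of the 8 metallothionein and zinc transport genes, Mt1 was the member over 2-fold higher and the zinc exporter Slc30a7, at 18.1 and 48.7 CPM, the member over 2-fold lower (-0.16 on the log2 scale in the shared range).

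Iron genes were split. Slc40a1 (GRCm38 chr1:45908068-45926523), ferroportin, the iron exporter of macrophages, stood at 1.92 CPM (27 UMIs) under HFD and 45.3 CPM (253 UMIs) under normal diet, 23.6-fold lower (15.8 to 36.5). It was in 0.299% and 6.98% of macrophages (0.608% and 13.3% unthinned), and WT had 1.69 and 44.02 CPM. Both HFD libraries thus held little of it and both normal-diet libraries more. The ferritin chains that store iron were higher, Fth1 at 6837 and 3014 CPM (2.27-fold) and Ftl1 at 6056 and 2347 CPM (2.58-fold). Blvrb, a biliverdin reductase of heme breakdown, was 2.41-fold higher at 366 and 152 CPM. In all, 3 of 17 iron and heme genes were over 2-fold higher and 2 lower, with a median of -0.31 that is 0.029 relative to span and 0.27 with TMM. Fth1 and Ftl1 were within 2-fold in the shared range, at log2 ratios of 0.68 and 0.94, and Slc40a1 was at -2.60.

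Of 12 complement genes, 2 were over 2-fold higher and 1 lower, with a median of 0.15. The 2 higher ones are C1qb, a marker of the rule, which is not read as a result, and C3. C1qc, outside the rule, had 2413 and 1322 CPM, 1.82-fold higher (1.78 to 1.87). C3 was 4.93-fold higher (3.83 to 6.45) at 57.3 and 11.6 CPM, with a UMI in 7.68% and 2.004% of macrophages and in 50 of 51 fibroblast-marked cells, so its share in macrophages lies under that of the fibroblast-marked cells. Of 8 MHC class II genes, 3 were over 2-fold higher and 1 lower, median 0.63: Cd74, the invariant chain, had 18156 and 7938 CPM, H2-Ab1 6846 and 3181 CPM, and H2-DMb2, a peptide loader, 8.04 and 36.1 CPM. H2-DMb2 passed the filter through the normal-diet pool only, so it could only be lower. The median of this list in the shared range was 0.17, and Cd74 and H2-Ab1 were within 2-fold at log2 ratios of 0.73 and 0.57. Of 14 classical monocyte genes, 7 were over 2-fold higher and 1 lower, with a median of 0.94 that was 0.056 in the shared range. Of these 14, 2 passed the filter through the HFD pool only. Chil3, a chitinase-like lectin of young monocytes, was 4.44-fold higher (3.47 to 5.75) at 55.6 and 12.5 CPM, Ly6c2, whose close copy Ly6c1 may share its reads, 2.53-fold higher at 17.2 and 6.80 CPM, and Ifitm3, an antiviral membrane protein, 2.65-fold higher at 2312 and 871 CPM. Plac8, another monocyte gene, was 2.36-fold lower at 78.97 and 187 CPM. The log2 ratio of Ly6c2 in the shared range was 0.43.

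Nuclear genes of mitochondrial respiration and genes of the cytoplasmic ribosome included many of the higher genes. Of 33 nuclear genes of oxidative phosphorylation, 16 were over 2-fold higher and 0 lower, with a median of 0.98, 0.72 relative to span, and 0.20 in WT. Atp5g1, a subunit of the ATP synthase ring, had 443 and 117 CPM (3.78-fold), Cox8a of complex IV 1235 and 452 CPM (2.73-fold) and Sdhb of complex II 168 and 63.4 CPM (2.65-fold). The 13 genes of mitochondrial DNA did not follow, with 1 higher, 1 lower and a median of -0.31, which TMM turns to 0.27. Of 26 cytoplasmic ribosome genes, 14 were over 2-fold higher and 0 lower, median 1.09 and 0.73 relative to span. Rps18, a protein of the small subunit, was at 2731 and 758 CPM, 3.60-fold. Within the shared range the medians of these 2 lists were 0.46 and 0.45, and Atp5g1 (0.88), Cox8a (0.74), Sdhb (0.80) and Rps18 (0.86) were within 2-fold. Of 22 cell division genes none passed 2-fold in either direction, median -0.0093, beside 0.97 in WT.

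The NR4A nuclear receptors, immediate early genes induced by cyclic AMP and by inflammatory signals, were lower under HFD. Nr4a3 was at 15.3 CPM under HFD and 178 CPM under normal diet, 11.6-fold lower (10.03 to 13.5). Nr4a2 had 34.01 and 166 CPM, 4.89-fold lower (4.38 to 5.48), and Nr4a1 364 and 744 CPM, 2.04-fold lower (1.96 to 2.13). In WT the 3 genes were also lower under HFD, Nr4a3 at 60.9 and 262 CPM, Nr4a2 at 85.8 and 219 CPM and Nr4a1 at 278 and 969.6 CPM. Nr4a3 was in 2.73% and 22.7% of CKO macrophages (6.31% and 37.96% unthinned). Lymphoid cells outside the rule also held it, 10 of 30 under HFD and 24 of 41 under normal diet (median 3067.5 UMIs over all 54). Nr4a3 and Nr4a2 were over 2-fold lower under all 19 alternative settings, and relative to span their log2 ratios were -2.84 and -2.03.

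Because the 3 genes were lower together, the 250 bases before their start sites are shown, from the RefSeq table for GRCm38.p6 and written 5′ to 3′ on the gene's strand. Capitals mark each match to TGACG, the half-site of the cyclic AMP response element, or to its reverse complement CGTCA. They are Nr4a1 at chr15:101266596-101266845 (plus strand), Nr4a2 at chr2:57124004-57124253 (minus strand) and Nr4a3 at chr4:48045055-48045304 (plus strand).
Nr4a1: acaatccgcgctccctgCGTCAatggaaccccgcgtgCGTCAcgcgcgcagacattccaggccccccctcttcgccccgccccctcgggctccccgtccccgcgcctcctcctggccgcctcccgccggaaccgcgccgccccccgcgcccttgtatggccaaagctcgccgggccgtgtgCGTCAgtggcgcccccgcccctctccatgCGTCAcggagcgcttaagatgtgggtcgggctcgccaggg
Nr4a2: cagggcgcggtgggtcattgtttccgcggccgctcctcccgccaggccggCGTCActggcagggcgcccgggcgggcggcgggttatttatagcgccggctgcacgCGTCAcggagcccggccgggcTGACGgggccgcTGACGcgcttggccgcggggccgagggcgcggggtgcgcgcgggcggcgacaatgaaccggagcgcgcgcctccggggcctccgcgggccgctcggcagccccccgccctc
Nr4a3: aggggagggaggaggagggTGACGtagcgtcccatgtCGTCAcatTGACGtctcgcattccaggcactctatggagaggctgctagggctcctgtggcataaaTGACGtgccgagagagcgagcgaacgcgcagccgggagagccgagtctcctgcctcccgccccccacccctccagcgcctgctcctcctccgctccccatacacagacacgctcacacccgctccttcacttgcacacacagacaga
Each window held 4 matches, on either strand. They began 233, 213, 69 and 40 bases before the start in Nr4a1, 200, 144, 123 and 111 in Nr4a2, and 231, 213, 205 and 147 in Nr4a3. Of all 32851 windows of the same length in the table, 17.8% held at least 1 match and 45 (0.137%) at least 4. The cut at 4 equals the count in the windows shown, so this share is a description and no test. A match is a run of letters and does not show binding.

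The wider list of 22 immediate early genes had 1 over 2-fold higher and 3 lower, the NR4A genes being the lower ones, with a median of -0.28 that TMM turns to 0.30. Atf3, a stress-induced repressor, was 2.01-fold higher at 1329.6 and 662 CPM. Fos was at 3109 and 2764 CPM, and Junb at 2219.7 and 3331 CPM. Of 11 cytokines, 0 were over 2-fold higher and 2 lower. Il6 was at 20.99 CPM under HFD and 107 CPM under normal diet, 5.09-fold lower (4.42 to 5.87), with 17.8 and 114 CPM in WT. It was in 3.10% and 12.7% of CKO macrophages, and in 1 of 51 fibroblast-marked cells. Il15, a cytokine for NK and memory T cells, was 2.52-fold lower at 19.8 and 50.1 CPM, yet -0.32 on the log2 scale relative to span. Tnf (95.2 and 81.96 CPM), Il1b (349.7 and 502 CPM) and Il10 (23.98 and 25.9 CPM) were within 2-fold, with Il1b at a ratio of 0.697 (0.665 to 0.730) that TMM scaling turns above 1. Of 14 NF-kappaB subunits and feedback inhibitors, 0 were over 2-fold higher and 2 lower, median -0.62. The lower pair were Nfkb1, at 142 and 531 CPM, and Bcl3, at 29.9 and 67.6 CPM. Bcl3 and Il15 were within 2-fold in the shared range, at log2 ratios of -0.71 and -0.32, while Nfkb1 was at -1.09, and Il1b, within 2-fold over all cells, at -1.09.

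Resident macrophage genes had more lower than higher members. Of 23 genes of this list, 0 were over 2-fold higher and 9 lower, median -0.80, -0.75 relative to span, and -1.29 in WT. Within the shared range the median turned to 0.73. Timd4, a phosphatidylserine receptor of long-lived residents, was at 5.69 CPM under HFD and 36.9 CPM under normal diet, 6.48-fold lower (4.98 to 8.49), and kept its direction in that range at a log2 ratio of -1.26. Fcna, a ficolin, had 56.7 and 152 CPM, and Cd209d, 1 of several similar C-type lectins that may share reads, 56.6 and 119.9 CPM, but within the range their log2 ratios were 0.25 and 0.49. F13a1, a transglutaminase chain, had 691 and 1827 CPM, and its log2 ratio of -1.40 is 0.055 relative to span. Abundant secreted products were within 2-fold: Retnla, a resistin-like molecule, at 13135 and 12182 CPM, the chemokine Pf4 at 3206 and 2529 CPM and Selenop, a selenium carrier, at 2066 and 1969 CPM. Igf1 and the lectin Mgl2 were the members with the highest ratios, Igf1 at 683 and 369.7 CPM and Mgl2 at 1066 and 732 CPM.

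Efferocytosis genes, for clearing dead cells, counted 7 of 17 over 2-fold lower and 0 higher, with a median of -0.68 that turns to 0.18 relative to span. The receptor Mertk had 48.7 and 133 CPM and its bridging ligand Gas6 179 and 437 CPM, 2.73-fold and 2.44-fold lower, and both turned above 0 in the shared range, to log2 ratios of 0.40 and 0.31. Macrophage identity transcription factors counted 12 of 25 over 2-fold lower and 1 higher, median -0.97 and -0.39 relative to span. Bcl6, a repressor, was 3.99-fold lower at 34.9 and 139 CPM, and -1.62 on the log2 scale relative to span, and Bhlhe40 2.47-fold lower at 43.6 and 108 CPM. Irf4, a factor of alternative activation, was at 27.3 and 81.2 CPM, 2.97-fold lower. Zeb2 (134 kb) and Runx1 (225 kb) had plain ratios of 0.340 and 0.275, but log2 ratios of -0.30 and -0.29 relative to span. Stat3, which carries IL-10 and IL-6 signals, was 4.46-fold lower at 155 and 691 CPM, -1.43 relative to span. Stat3, Bcl6, Zeb2 and Runx1 were within 2-fold in the shared range, at log2 ratios of -0.83, -0.76, -0.34 and -0.45, and the list median was -0.34.

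Cholesterol genes were over 2-fold lower about as often as all genes (24.5%). Of 14 sterol synthesis genes, 4 were over 2-fold lower and 1 higher, median -0.73, -0.61 relative to span and -0.81 in the shared range. Of these 14, 2 passed the filter through the normal-diet pool only. The synthesis enzyme Hmgcs1 was at 24.3 and 51.7 CPM. Fdps, farnesyl diphosphate synthase, was 2.500-fold higher at 34.01 and 13.6 CPM. Of 17 PPARG, LXR and cholesterol export genes, 4 were over 2-fold lower and 1 higher, with a median of -0.34 that turns to 0.10 relative to span and 0.22 with TMM. Nr1h3, which encodes LXR alpha, was 2.83-fold higher (2.06 to 3.95) at 22.8 and 8.05 CPM. It passed the filter through the HFD pool only, so it could only be higher. Its targets Abca1, a cholesterol exporter, and Mylip, a ubiquitin ligase gene, were 3.75-fold and 4.70-fold lower, at 106 and 397 CPM and at 22.2 and 104 CPM. Pparg was at 31.7 and 78.9 CPM in CKO and 116 and 96.7 CPM in WT. None of these 5 genes was over 2-fold apart in the shared range, with log2 ratios of -0.15 for Fdps, 0.34 for Nr1h3, -0.35 for Abca1, -0.92 for Mylip and -0.52 for Pparg.

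Of 15 growth factors, 1 was over 2-fold higher and 5 lower. Gdf15, a stress-induced hormone, was 3.82-fold higher (3.29 to 4.45) at 132 and 34.5 CPM, and Igf1 1.85-fold higher (1.76 to 1.94). The log2 ratio of Gdf15 in the shared range was 0.81, within 2-fold, and that of Igf1 1.8999. Among 18 matrix genes, 3 were higher and 4 lower, among the latter Fn1, fibronectin, at 809 and 1655 CPM. Of these 18, 3 passed the filter through the HFD pool only and 1 through the normal-diet pool only. Interferon-stimulated genes counted 1 of 20 higher and 2 lower, lysosomal cathepsins 1 of 13 and 0, glycolysis 1 of 17 and 2, and the unfolded protein response 1 of 19 and 1. Among genes lower both plainly and relative to span were the surface glycoprotein Cd24a (12.9 and 83.04 CPM), the NAD-consuming enzyme Cd38 (9.46 and 82.1 CPM) and the integrin chain Itgal (8.54 and 70.2 CPM), chosen after their values were seen. Each was as low in the WT HFD library, at 13.1, 8.76 and 8.43 CPM.

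**Figure D4:**
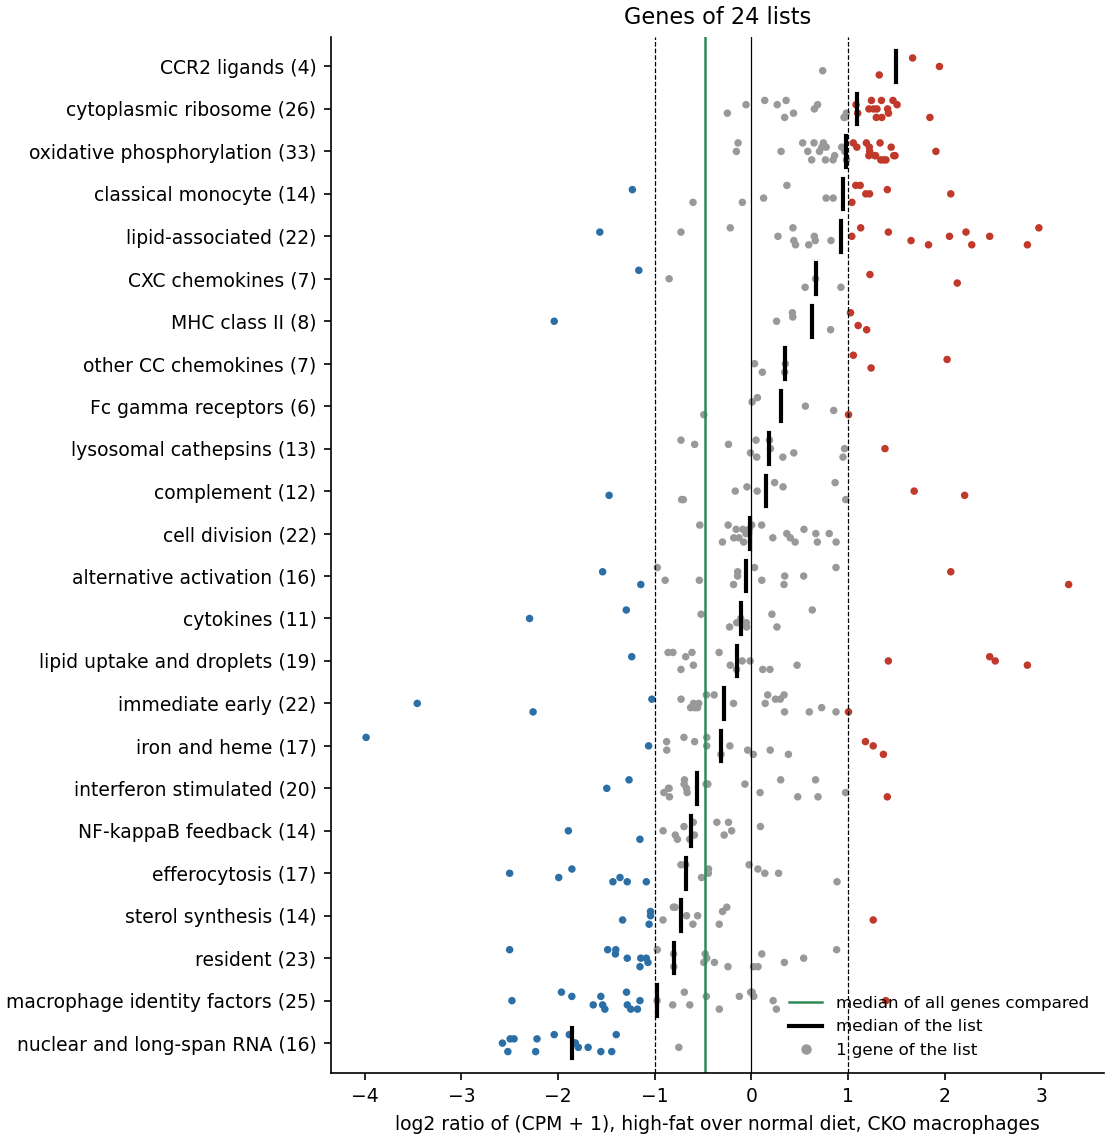
Log2 ratio of CPM + 1, high-fat over normal diet, in CKO macrophages (x axis) for each gene (point) of 24 lists (y axis, number of genes compared in brackets), red over 2-fold higher and blue over 2-fold lower. Black bars are list medians, from 1.497 for the CCR2 ligands to -1.85 for nuclear and long-span RNA, and the green line is the median of all 7809 genes, -0.48.

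Markers of other cells were measured in the same pools. Fibroblast markers summed to 170.1 CPM under HFD and 172 CPM under normal diet, with 1 of 12 reaching 10 CPM. Endothelial and mural markers summed to 419 and 67.6 CPM, most of it Fabp4, and adipocyte markers to 40.4 and 13.96 CPM, led by Car3 at 19.00 and 8.95 CPM. T, NK and innate lymphoid markers summed to 54.6 and 17.9 CPM with 1 of 16 at 0, B cell markers to 215 and 396 CPM with 2 of 9 at 0, and neutrophil markers to 28.96 and 83.6 CPM with 2 of 10 at 0. Mesothelial and mast cell or eosinophil markers stayed under 1.5 CPM in sum, with 4 of 7 and 5 of 8 at 0. Markers of neighbouring phagocytes differed by list. Plasmacytoid and migratory dendritic markers summed to 226 CPM under HFD and 180.2 CPM under normal diet, type 1 dendritic markers to 351 and 444 CPM, and cavity macrophage markers to 46.7 and 109.7 CPM. In the first of these lists 2 genes were compared and went opposite ways, Bst2 at a log2 ratio of 0.69 and Siglech at -2.63. Siglech passed the filter through the normal-diet pool only and was at -0.29 in the shared range. Non-classical monocyte markers counted 5 of 7 over 2-fold lower, summing to 645 and 1244 CPM, with Ace at 1.85 and 26.5 CPM and Treml4 at 3.06 and 19.7 CPM. Of these 7, 3 passed the filter through the normal-diet pool only, Ace and Treml4 among them, so they could only be lower. Type 2 dendritic markers counted 4 of 6 lower, summing to 1685 and 2003 CPM, with Cd209a, a lectin, at 20.3 and 92.9 CPM (4.58-fold, 3.96 to 5.31) and Zbtb46 at 3.06 and 23.1 CPM. Of these 6, 2 passed the filter through the normal-diet pool only, Zbtb46 among them. Nr4a1 and Itgal are also on the non-classical monocyte list, and the part of such cells in their values was not tested.

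Members were also split by markers at 2000 UMIs. Cells with at least 2 of Lyve1, Folr2, Cd163, Cbr2, Timd4 and F13a1 (resident-marked) made up 48.8% (47.7 to 50.02%) of HFD and 61.6% (59.8 to 63.4%) of normal-diet macrophages. The others with at least 2 of Trem2, Gpnmb, Spp1, Lpl, Cd9 and Fabp5 (lipid-marked) made up 21.98% (21.02 to 22.97%) and 7.55% (6.599 to 8.59%), and the rest 29.2% and 30.9%. In WT the resident-marked share was 25.7% under HFD and 52.3% under normal diet, and the lipid-marked share 37.6% and 10.7%. These are ranges of a marker count and not cell types, and 36.1% and 37.0% of CKO macrophages lay at the edge, with exactly 1 or 2 resident markers. The ranges are cut from genes described above as different between the pools, among them Trem2, Gpnmb, Spp1, Fabp5, Timd4 and F13a1. Their shares therefore restate those levels in part and are no separate result. Among cells of the shared range the order turned, with 70.9% (69.0 to 72.6%) of HFD and 46.3% (43.1 to 49.5%) of normal-diet cells resident-marked and 9.83% and 14.1% lipid-marked. That range takes 51.005% of HFD but 26.2% of normal-diet resident-marked cells.

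Ratios were also computed within each marker range for 13 genes. Ccl2 was 3.92-fold higher in resident-marked, 3.12-fold in lipid-marked and 5.43-fold in the other cells, and Mt1 5.62-fold, 4.55-fold and 5.49-fold. Of the 4 CCR2 ligands, 4, 2 and 4 were over 2-fold higher in these 3 ranges. Nr4a3 had ratios of 0.0846, 0.0726 and 0.0783, and Il6 of 0.272, 0.0846 and 0.176. Fabp4 was 6.76-fold, 6.11-fold and 3.5-fold higher. The ratio of Ccl12 in lipid-marked cells, 1.36, had an interval that held 1.

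**Figure D5:**
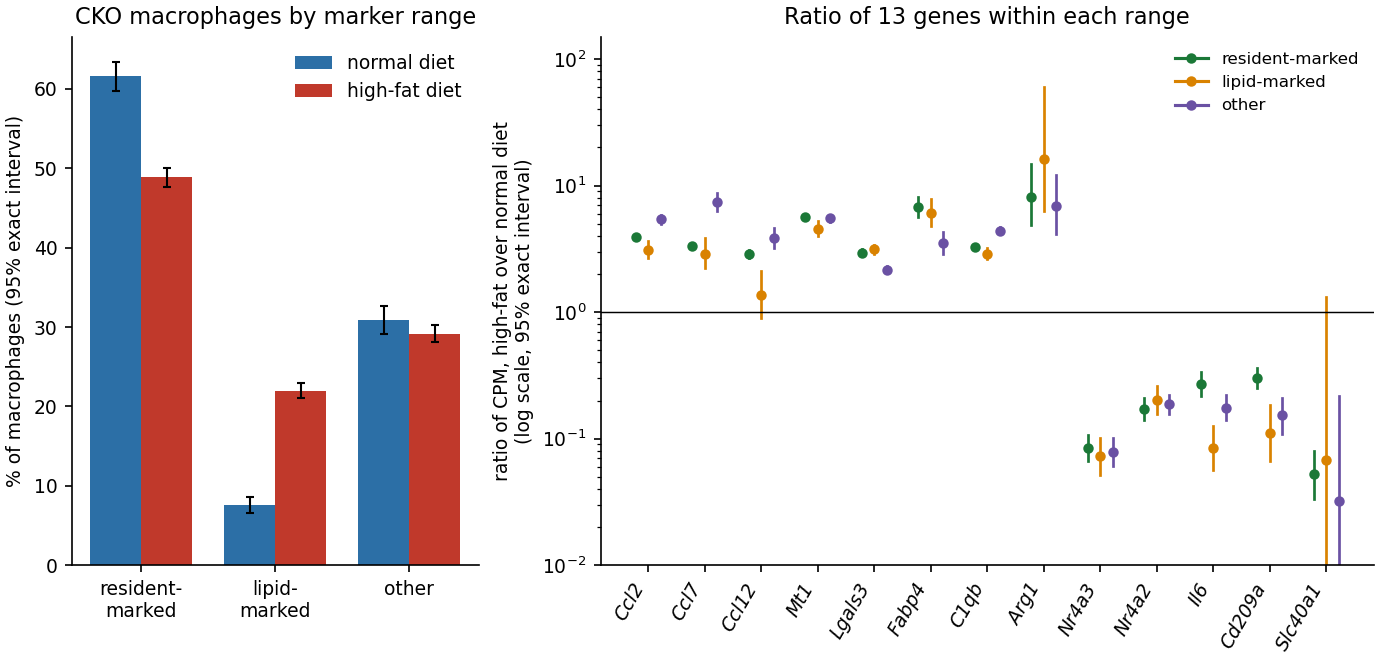
Left, percent of CKO macrophages in each marker range (y axis) under normal (blue) and high-fat diet (red) with 95% exact intervals; right, ratio of CPM, high-fat over normal diet (y axis, log scale), of 13 genes (x axis) within resident-marked (green), lipid-marked (orange) and other cells (purple) with 95% exact intervals. The lipid-marked share was 21.98% under high-fat and 7.55% under normal diet, and all intervals lay clear of 1 except those of Ccl12 and Slc40a1 in lipid-marked cells; C1qb, a marker of the rule, is shown as a description.

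Set beside the WT pair, 7663 genes were compared in both genotypes. Of these, 378 were over 2-fold higher in CKO and 301 in WT, and the 151 in common were 39.9% of the former and 50.2% of the latter. Over all 7663 genes, 4.93% were over 2-fold higher in CKO and 3.93% in WT. For lower genes the counts were 1897 and 718, with 553 in common, 29.2% and 77.0%. Over all 7663 genes, 24.8% were over 2-fold lower in CKO and 9.37% in WT. Counted both plainly and relative to span, 191 and 211 were higher with 83 in common (43.5% and 39.3%), and 255 and 339 lower with 142 in common (55.7% and 41.9%). The shares over all 7663 genes by this count were 2.49% and 2.75% higher, and 3.33% and 4.42% lower. The genes in common included Trem2, Fabp4, Rnase2a, Lgals3 and Slc40a1, while Ccl2, Mt1 and Cxcl13 were over 2-fold higher in the CKO pair without being so in the WT pair.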

How the data were processed

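Each library's deposited matrix holds UMI counts per gene and cell, written by Cell Ranger 7.0.0 per the file headers, on GRCm38 per the submitters' processing notes; whether intronic reads were counted, and whether the authors removed doublets, is not stated there. Of 32285 gene IDs, 32158 (99.6%) matched the annotation. Cells were filtered, thinned to 2000 UMIs (seed 7) and pooled as the report gives. CPM are pool counts scaled to 1000000. Intervals are exact Poisson for a level, exact conditional binomial for a ratio and Clopper-Pearson for a share, at 95%. A share with 0 positive cells is given the limit of 3 counts over the number of cells.

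Genes with a mean of 10 CPM were compared with a pseudocount of 1 CPM and a threshold of 2-fold. With 1 library per group no test was run. The ratio and its interval were tested on simulated data. Named genes were Prdm1, the markers of the sorted cells, the 15 highest and 15 lowest ratios of CPM + 10 at a mean of at least 25 CPM, and from each list the 3 most abundant members and all past 2-fold; the text describes a selection of them, and a few are not reported here. The macrophages, gene lists and marker ranges were chosen with earlier results of these data known.

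Scrublet called 0 doublets in either library, so it did not work here. No cell was removed as a doublet, and leaving out the highest 610 (6.99%) and 148 (3.44%) scores is an alternative. Alternatives covered scaling, filters, pseudocount, thinning, the marker rule, doublets and gene span. Tools were Python 3.11.15, numpy 2.4.6, scipy 1.17.1, pandas 2.3.3, scanpy 1.11.5, matplotlib 3.10.9, R 4.3.3, edgeR 4.0.16 (TMM factors) and DESeq2 1.42.0 (size factors).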

Additional observations from a re-analysis of the deposited data

Results flagged for a closer look

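A set of 8 named genes stood at least 1.5-fold apart between the diets in opposite directions in the CKO and WT pairs. Many named genes were chosen for being past 2-fold in CKO, and no share over all genes is given. The difference between the pairs was not tested, since each pair holds 1 library per diet. The WT HFD library was also deeper per cell, as given at the start. Ratios are CPM under HFD over CPM under normal diet. The higher ones in CKO were the chemokines Cxcl13 (4.62 in CKO and 0.104 in WT) and Ccl12 (2.51 and 0.624), the monocyte gene Ly6c2 (2.53 and 0.541), the membrane metalloproteinase Mmp14 (2.52 and 0.538) and AA467197 (6.33 and 0.145). AA467197 was at 49.9 and 7.87 CPM in CKO and at 1.35 and 9.28 CPM in WT. AA467197, Ly6c2 and Mmp14 were under 10 CPM in CKO under normal diet, so the filter fixed their direction in CKO. The lower ones in CKO were the Mediator kinase Cdk8 (0.281 in CKO and 1.93 in WT), Cmss1 (0.379 and 4.16) and the mitochondrial leucyl-tRNA synthetase Lars2 (0.242 and 1.74). Gm42418 followed the latter, with 0.685% and 3.86% of UMIs in CKO and 4.78% and 3.28% in WT. In the shared range of CKO cells the log2 ratios of Ly6c2 (0.43), Mmp14 (0.68), Cdk8 (-0.89) and Cmss1 (-0.81) were within 2-fold.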

How the results depend on the processing

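With 1 library per group there is no replicate to leave out. No paired analysis was possible because each group is 1 library. The count of genes over 2-fold higher (389) became 1190 with TMM scaling, 1126 with DESeq2 size factors, 252 with a filter at a mean of 50 CPM, 257 with a pseudocount of 10 CPM and 178 in the shared range of long-span RNA. Under the same 5 alternatives the count over 2-fold lower (1916) became 633, 694, 881, 1205 and 420, and relative to span it was 354. The median log2 ratio of all genes (-0.48) became 0.081 with TMM, 0.050 with DESeq2 size factors, -0.24 with no filter, -0.16 in the shared range and 0 relative to span, where it is 0 by construction. The stricter filter compares fewer genes, TMM and DESeq2 size factors add a constant to every log2 ratio, and the larger pseudocount draws each log2 ratio toward 0. For the other settings the cause was not tested. Under every other alternative the counts stayed within 1.5 times, from 290 to 532 for higher and from 1610 to 2742 for lower genes.

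Of 96 named genes over 2-fold higher, 23 stayed so in all 19 alternatives and 93 kept their sign; of 120 lower, 31 and 100 did. In the shared range these log2 ratios changed sign: Abca9 to 0.18, Adgre4 0.037, Bmp2 0.49, Cd209b 0.73, Cd209d 0.49, Cxcl12 0.39, F13a1 0.40, Fcna 0.25, Fdps -0.15, Gas6 0.31, Gpnmb -0.065, Il7r -0.46, Itga9 0.53, Maf 0.16, Mertk 0.40, Pdgfc 0.82, Pfkfb3 0.10 and Stab1 0.63. Relative to span these did: Acaca to 0.12, Cadm1 0.50, Cmss1 0.30, F13a1 0.055, Itga9 0.29, Ptprc 0.0015 and Wdfy4 0.34. The cause was not tested. Thinned pools of 14056000 and 5588000 UMIs leave genes under 10 CPM with wide intervals in the normal-diet pool.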

Other observations

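Other groups of genes were measured in the same pools and are given as values. Of 13 hypoxia-induced genes, 2 were over 2-fold higher under HFD and 1 lower: besides Hilpda the higher one was Mif, macrophage migration inhibitory factor, at 177 and 62.3 CPM, and P4ha1, a collagen prolyl hydroxylase, was the lower one at 38.3 and 81.2 CPM. Of 16 subunits of the vacuolar proton pump, 2 were higher and 1 lower. Atp6v0d2, a subunit also found in osteoclasts, was at 24.3 and 10.6 CPM, 2.30-fold higher (1.74 to 3.09), and at 81.5 and 13.2 CPM in WT. The MHC class I list had 1 of 17 higher, the immunoproteasome subunit Psmb8 at 238 and 91.1 CPM, and 2 lower, H2-Q6 at 8.68 and 21.3 CPM and its transactivator Nlrc5 at 10.5 and 24.7 CPM. Reads of H2-Q6 may be shared with other copies of its family. In the shared range Mif (0.55), P4ha1 (-0.48), Atp6v0d2 (0.34), Psmb8 (0.61) and Nlrc5 (-0.41) were within 2-fold on the log2 scale.

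Integrins counted 5 of 11 over 2-fold lower and 0 higher, with a median of -0.70 that turned to 0.29 relative to span. Of these 11, 3 passed the filter through the normal-diet pool only. Itgb7 had 6.69 and 25.6 CPM and a log2 ratio of -1.53 relative to span, and Itga4, its partner, 77.5 and 267 CPM and -0.77. Cd226, an adhesion receptor, was at 16.8 and 95.9 CPM in CKO and 24.5 and 97.5 CPM in WT. Lyz1, a lysozyme whose reads may be shared with Lyz2, was 2.24-fold lower at 229.8 and 514 CPM, whereas Lyz2 was 2.12-fold higher at 8350.5 and 3947 CPM. Of 9 glucocorticoid-induced genes 0 were over 2-fold higher and 1 lower. Zbtb16 was the lower one at 8.82 and 49.03 CPM, but it passed the filter through the normal-diet pool only and could only be lower. Tsc22d3, which encodes the glucocorticoid-induced leucine zipper, was 1.56-fold higher at 341 and 218 CPM. Nlrp3, the inflammasome sensor, was 2.44-fold lower at 56.7 and 138 CPM, and Cd14, a lipopolysaccharide co-receptor, was at 487 and 432 CPM. Bri3, a small lysosomal membrane protein, was 1.65-fold higher at 506 and 307 CPM, a log2 ratio of 2.24 relative to span, and was chosen after its value was seen. In the shared range Lyz2 (0.28) and Nlrp3 (-0.71) were within 2-fold on the log2 scale.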
